A study of Mus musculus with 4 samples.

Results

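Peroxisomal proteins outside the core beta-oxidation enzymes were followed in the fasted mouse liver, as 37 genes chosen by symbol from the 54532 genes of the count table. They are 13 peroxins, which build the organelle, and 24 enzymes, carriers and membrane proteins. The series holds 4 livers of mice with a liver-specific knockout of Cpt1a, the outer mitochondrial membrane enzyme that admits long-chain fatty acids to mitochondrial oxidation, fasted for 24 h. The column headers name that group Cpt1a_AlbCre, and Alb-Cre is a recombinase driven by the albumin promoter, which is active in hepatocytes. The sources used here name no age, sex or strain. They also do not say that each of the 4 libraries is a different mouse, so differences among the livers may be technical.

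A further pair of groups enters only through the authors' comparisons. One is headed Cpt2_AlbCre and lacks Cpt2, the inner membrane partner enzyme, per the design text. The other is the reference, headed Rab30Cpt2_f, whose alleles the sources used here do not explain beyond a mention of littermate controls. The design text has all mice fasted for the same 24 h. The Cpt2 samples had been submitted before, in another series, and whether the groups were sequenced together is not given. Batch and genotype can therefore not be told apart in any comparison, including that of the Cpt1a knockout with the reference.

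Peroxisomes have no genome and import all their proteins. Matrix enzymes carry a targeting signal at the end or near the start of the chain, which the receptors Pex5 and Pex7 read, while Pex3, Pex16 and Pex19 insert membrane proteins. In the liver the organelle shortens very long and branched fatty acids, starts ether lipid synthesis, oxidises glycolate and urate, and breaks down the hydrogen peroxide these reactions release. Many of its genes are targets of the fasting receptor PPARA.

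The targeted gene fitted its label: Cpt1a was at 24.4, 28.6, 31.1 and 36.9 FPKM (fragments per kilobase of gene, scaled to library size) and had a log2 fold change of −2.79 against the reference (adjusted p = 5.27e-51, the authors' deposited table). Cpt2 transcript was not lower in the group labelled Cpt2 (−0.07, adjusted p = 0.837, the authors' deposited table), called the Cpt2 group here. A count over a whole gene need not show a partial deletion, and whether there is one was not tested. Library totals were 13138884 to 14116441 counts. Hepatocyte markers summed to 20165 to 28931 FPKM per liver, Kupffer cell and macrophage markers to 153 to 184, and kidney tubule markers to at most 0.0601, with Slc12a1 at 0.

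The changes were in single genes of different roles and went in both directions. Pex11a, which elongates the membrane before peroxisomes divide, rose 2.15-fold in the Cpt1a knockout and 3.40-fold in the Cpt2 group, by the authors' deposited tables. Pecr, an enoyl-CoA reductase, fell in both (−0.78 and −1.98 on the log2 scale of the authors' deposited tables). Hao1, the glycolate oxidase, was 5.36-fold lower in the Cpt2 group, while the sum of the authors' deposited tables put it at −0.15 in the Cpt1a knockout, where it was not called. Abcd2, a carrier of very long-chain acyl-CoA, and Far1, the reductase that supplies fatty alcohol for ether lipids, rose in the Cpt1a knockout (1.43 and 1.02 in the authors' deposited table) and were not called in the Cpt2 group. Both comparisons share the reference libraries, so they are not independent of each other.

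A gene is called here where the authors' adjusted p is below 0.05. In the Cpt1a knockout 9 of 36 genes were called, 4 higher and 5 lower, against 14.4% of all genes tested in that authors' deposited table (6.81% higher and 7.60% lower). The number tested there, 16862, was inferred from the p-values and adjusted p-values, since only part of the genes is listed. For the Cpt2 group the authors' deposited table called 15 of 36, 7 higher and 8 lower, against 21.0% (10.3% and 10.7%). In the direct comparison of the Cpt1a knockout with the Cpt2 group 17 of 36 differed, 8 higher and 9 lower in the Cpt1a knockout, against 28.8% (14.2% and 14.6%) in the authors' deposited table.

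These genes are more abundant than most, which bears on how often genes are called. Their median level in the Cpt1a knockout livers was 27.8 FPKM, against 3.20 FPKM over the 13794 genes whose mean count reached 10. Of the 25 at a mean of 10 FPKM or more in these livers, 24.0%, 56.0% and 52.0% were called in the same 3 comparisons of the authors' deposited tables. The cut used the Cpt1a knockout livers only, also for the other groups, so a gene low in another group can pass. Hao1 passes at 43.0 FPKM and is 4.84-fold above the Cpt2 group in the authors' deposited table. Among all genes past the same cut the shares were 27.4%, 36.1% and 44.2%. The share in the Cpt1a knockout against the reference was therefore near that of other abundant genes. The median log2 fold changes were −0.06, 0.04 and 0.04, next to 0.01, −0.03 and 0.05 over all genes (sums of tables where the partial table has no value) in the authors' deposited tables.

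Promoters are shown for Hao1, Pecr, Pex11a and Uox (urate oxidase), the 4 genes with the largest changes in the Cpt2 group among the 30 that have a window in the RefSeq table (GRCm38.p6). Each line gives up to 250 bases before the RefSeq start, on the gene's strand, without annotated exon stretches of over 30 bases, and capitals mark the GC box GGGCGG or CCAAT on either strand.
Hao1: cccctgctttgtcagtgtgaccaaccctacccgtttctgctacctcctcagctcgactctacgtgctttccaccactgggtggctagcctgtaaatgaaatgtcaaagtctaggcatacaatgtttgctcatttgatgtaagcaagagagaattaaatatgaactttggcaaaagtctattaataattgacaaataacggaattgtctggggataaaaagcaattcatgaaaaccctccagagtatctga
Pecr: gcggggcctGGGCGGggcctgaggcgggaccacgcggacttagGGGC
Pex11a: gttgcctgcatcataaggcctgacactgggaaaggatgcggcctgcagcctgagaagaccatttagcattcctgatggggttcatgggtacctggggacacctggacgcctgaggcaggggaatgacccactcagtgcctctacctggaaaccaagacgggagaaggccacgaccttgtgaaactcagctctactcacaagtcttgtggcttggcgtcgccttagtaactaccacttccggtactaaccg
Uox: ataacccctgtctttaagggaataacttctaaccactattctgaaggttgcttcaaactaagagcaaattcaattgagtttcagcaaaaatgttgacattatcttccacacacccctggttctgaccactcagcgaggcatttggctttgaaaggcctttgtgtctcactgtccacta
They lie at chr2:134554353-134554602, chr1:72284322-72284368, chr7:79743132-79743381 (minus strand for these 3) and chr3:146596899-146597076 (plus strand). The last 4 capitals of the Pecr line open a box that runs past the start. The Uox line stops short of its RefSeq start at 146597149, because an annotated exon stretch before that start is left out. This RefSeq start lies inside the annotated Uox gene, which begins at 146570426.

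Hao1 and Uox had no GC box or CCAAT in their windows, which run from 250 bases before to 50 bases after the start, and held 5 and 6 CpG. Pecr had 3 GC boxes and 21 CpG, and Pex11a 1 GC box, after the start, and 13 CpG. Pecr and Pex11a start 48 and 32 bases from the start of a gene on the opposite strand, Tmem169 and Wdr93. Over the 37 windows of the 30 genes, 67.6% held a GC box against 35.7% of all 32851 windows in the RefSeq table, and the median was 15 CpG against 7. CCAAT was in 35.1% against 37.4%, and TATAAA in 8.11% against 13.6%. A direct repeat of AGGNCA with 1 base between the copies, a form of the element that PPARA binds with RXR, was in 0 of the 37 windows and in 0.381% of all, and AGGTCA, its single repeat, in 10.8% against 16.3% (both strands in each search, and the short form also counts inside the longer one). That says only that these letters are not in these windows.

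**Figure D1:**
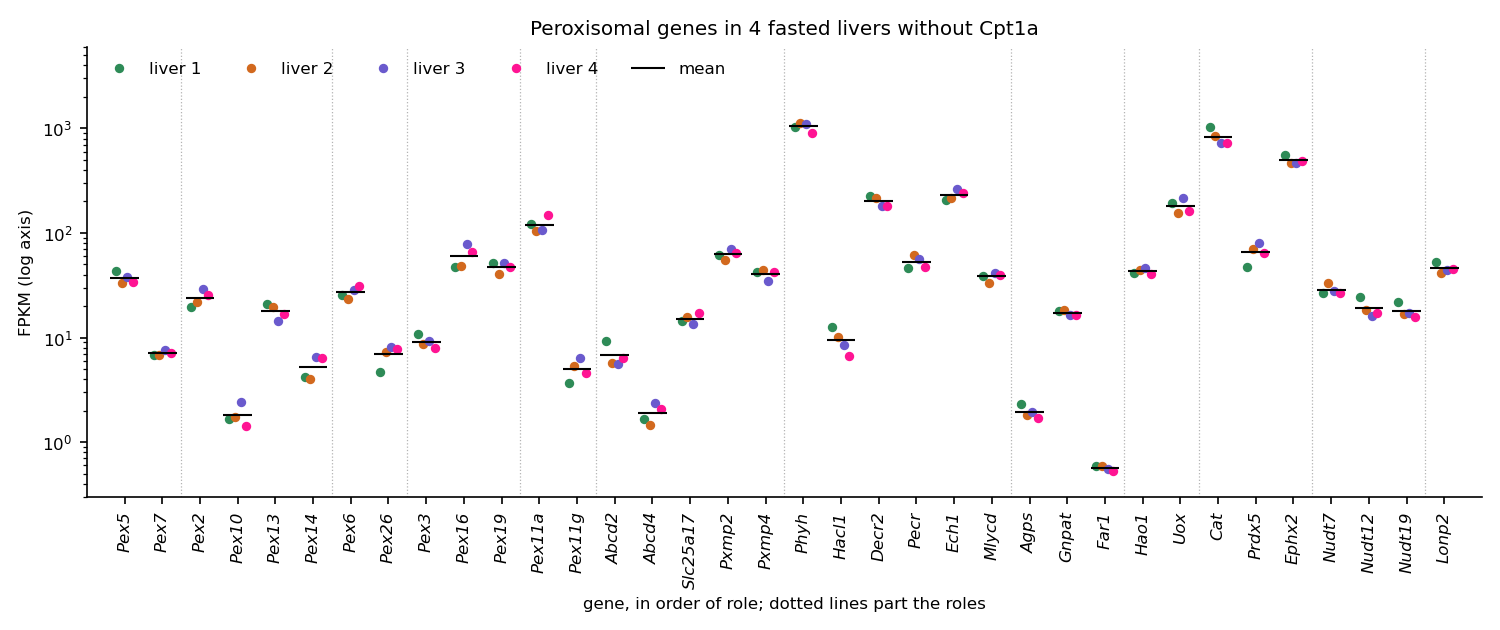
FPKM (log axis) of the 36 detected genes in each of the 4 Cpt1a knockout livers (coloured points) with the mean (black line), in order of role. Levels run from 0.565 FPKM for Far1 to 1045 FPKM for Phyh, and the points of 1 gene lie close together next to that range.

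Levels in the Cpt1a knockout livers spanned more than 3 orders of magnitude. Of the 37 genes, 36 had counts in all 4 livers, 7 reached a mean of 100 FPKM, 18 lay between 10 and 100, and 10 between 1 and 10. Cat, Phyh and Ephx2 made up 62.0% of the summed FPKM. Dao, the D-amino acid oxidase known from kidney and brain, had 0 counts in all 4 livers, which allows up to 0.0677 FPKM (3 counts, counting error only). On the log2(FPKM + 1) scale the SD over livers had a median of 0.18, the same as over all 13794 genes, and single genes ranged from 0.03 to 0.35. FPKM here divides by the summed exons of a gene, 3.13 times the longest coding transcript for Pex14 and 3.1 times for Abcd4, which lowers the levels of these genes next to the others.

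Among the import receptors, Pex5 reads the signal at the end of the chain and Pex7 the one near its start. Pex5 was at 43.6, 33.0, 37.7 and 34.1 FPKM and Pex7 at 6.84, 6.83, 7.62 and 7.09 FPKM in livers 1 to 4. Pex5 was above Pex7 in all 4, with a ratio of 5.24 ± 0.760 (SD, n = 4). They went opposite ways in the direct comparison: Pex5 was lower (−0.43, adjusted p = 0.00916) and Pex7 higher (0.70, adjusted p = 1.16e-07) in the Cpt1a knockout than in the Cpt2 group (the authors' deposited table). With the reference as the base, Pex5 rose in the Cpt2 group (0.40, adjusted p = 0.0329) and Pex7 had −0.40 (adjusted p = 0.0741) in the authors' deposited table. Neither was called in the Cpt1a knockout, with summed values of −0.02 and 0.30 from the authors' deposited tables.

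Pex13 and Pex14 dock the loaded receptor at the membrane, and Pex2 and Pex10 belong to the ubiquitin ligase that marks it for return. Pex14 was at 4.22, 4.01, 6.52 and 6.35 FPKM, so livers 3 and 4 were above livers 1 and 2. It was lower in the Cpt1a knockout than in the Cpt2 group (−0.66, adjusted p = 0.00344, the authors' deposited table). Pex14 shares 28.3% of its exon bases with Gm17029 on the opposite strand. Its docking partner Pex13, at 17.9 ± 2.88 FPKM (SD, n = 4), had −0.05 there in the authors' deposited table. Pex2, at 24.1 ± 4.11 FPKM (SD, n = 4), fell slightly in the Cpt2 group (−0.48, the authors' deposited table), with an adjusted p of 0.0456. Pex10 was the least abundant peroxin, at 1.82 ± 0.428 FPKM (SD, n = 4), and was not called in any authors' deposited table.

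Pex6 is an ATPase that pulls the receptor out of the membrane, and Pex26 anchors it. Pex6 was at 25.4, 23.3, 28.3 and 31.2 FPKM and Pex26 at 4.70, 7.22, 8.07 and 7.85 FPKM, with liver 1 lowest for Pex26. Pex6 had the lowest log2 fold change of all 36 genes in the direct comparison, −0.81 in the Cpt1a knockout relative to the Cpt2 group (adjusted p = 6.02e-07, the authors' deposited table). Against the reference it had 0.45 in the Cpt2 group (adjusted p = 0.146) and a summed −0.35 in the Cpt1a knockout, and neither was called in the authors' deposited tables. Pex26 was called in none of the authors' deposited tables (0.28 in the direct comparison).

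The membrane insertion factors Pex16 and Pex19 rose in the Cpt2 group. Pex16 was at 47.1, 48.2, 78.0 and 65.2 FPKM in the Cpt1a knockout livers, and with an SD of 0.35 (log2) it shared the widest spread of the 36 with Hacl1. Pex19, the carrier of new membrane proteins, was at 51.8, 40.1, 51.2 and 47.7 FPKM. In the Cpt2 group Pex16 had 0.63 (adjusted p = 0.00349) and Pex19 0.83 (adjusted p = 1.20e-08) in the authors' deposited table. Both were lower in the Cpt1a knockout than in the Cpt2 group (−0.55 and −0.42, adjusted p of 0.0172 and 0.00434, the authors' deposited table). Against the reference Pex19 just missed the threshold in the Cpt1a knockout (0.42, adjusted p = 0.0521), as did Pex3, the membrane dock of Pex19 (0.52, adjusted p = 0.0737), in the authors' deposited table.

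Pex11a (chromosome 7, 79735957 to 79743131, GRCm38) showed the largest rise among the peroxins. It was at 122, 104, 107 and 149 FPKM in the 4 livers, with liver 4 highest. The authors' deposited tables gave 1.11 in the Cpt1a knockout (adjusted p = 2.35e-05) and 1.77 in the Cpt2 group (adjusted p = 4.10e-15). Compared directly, it was lower in the Cpt1a knockout (−0.67, adjusted p = 2.61e-04, the authors' deposited table). Its relative Pex11g, at 3.71, 5.34, 6.44 and 4.61 FPKM, was called in none of the authors' deposited tables (−0.38 in the Cpt2 group). Pex11g shares 41.1% of its exon bases with Gm44775 on the opposite strand, and the use of strand in the counting is not given in the sources used here.

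Counted together, 1 of 13 peroxins rose and none fell in the Cpt1a knockout, while 4 rose and 1 fell in the Cpt2 group, by the authors' deposited tables. Compared directly, 6 were lower in the Cpt1a knockout (Pex5, Pex6, Pex11a, Pex14, Pex16 and Pex19) and 1 higher (Pex7) in the authors' deposited table. That is 7.69%, 38.5% and 53.8% of the peroxins called, beside the 14.4%, 21.0% and 28.8% of all genes given above and 27.4%, 36.1% and 44.2% of genes at 10 FPKM or more. The last set was cut on the Cpt1a knockout livers alone. It is not matched in level, since Pex3, Pex7, Pex10, Pex11g, Pex14 and Pex26 lie below 10 FPKM. The medians of the 13 peroxins in the 3 comparisons were 0.00, 0.34 and −0.30 in the authors' deposited tables.

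**Figure D2:**
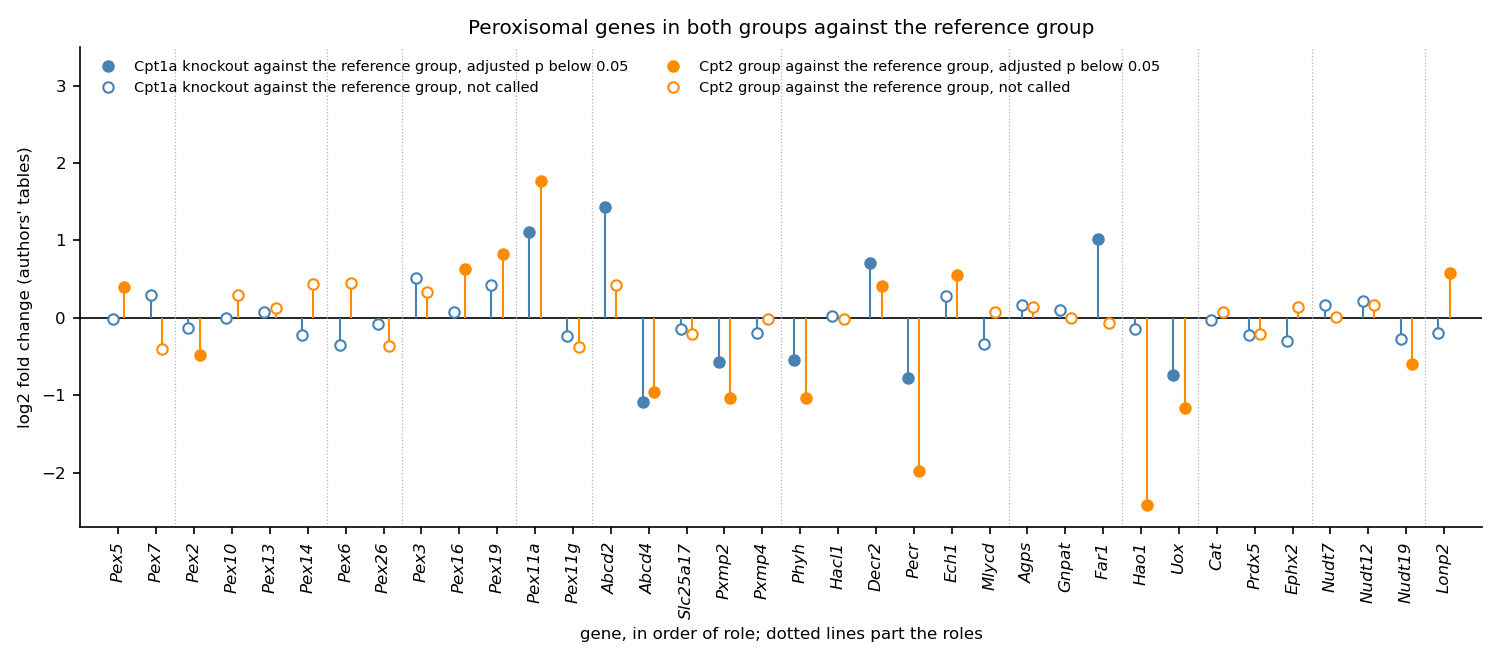
Log2 fold change of each gene against the reference group in the Cpt1a knockout (blue) and the Cpt2 group (orange), in order of role, from the authors' tables, with filled points at adjusted p below 0.05 and open points not called (where the Cpt1a table lists no value, the sum of the other tables). Pex11a stands at 1.11 and 1.77, Hao1 at −0.15 and −2.42.

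The membrane carriers split. Abcd2 (chromosome 15, 91145871 to 91191799, GRCm38) was at 9.32, 5.69, 5.59 and 6.34 FPKM, with liver 1 highest. It was higher in the Cpt1a knockout than in the reference (1.43, adjusted p = 0.00185) and than in the Cpt2 group (0.99, adjusted p = 4.48e-04) in the authors' deposited tables, and had 0.43 (adjusted p = 0.510) in the Cpt2 group against the reference. Pxmp2, a channel of the peroxisomal membrane, was at 61.2, 55.0, 70.9 and 63.9 FPKM and shares 10.8% of its exon bases with Gm15788 on the opposite strand. It fell in both groups (−0.57, adjusted p = 0.0115, and −1.04, adjusted p = 2.00e-07) in the authors' deposited tables.

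Abcd4 is named with the peroxisomal carriers, although it is known to act in the lysosome in vitamin B12 export. It was at 1.67, 1.46, 2.39 and 2.08 FPKM and fell in both groups (−1.09, adjusted p = 0.00239, and −0.96, adjusted p = 0.00262, the authors' deposited tables), with no call between them (−0.15). Slc25a17, a carrier of coenzyme A and other cofactors, and Pxmp4, a membrane protein, were at 15.1 ± 1.64 and 40.8 ± 3.98 FPKM (SD, n = 4 each). Neither was called in any authors' deposited table.

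Enzymes that prepare unusual fatty acids held both directions. Phyh starts the breakdown of phytanic acid, and Hacl1 makes the next cleavage. Phyh was the most abundant of the 37 genes, at 1041, 1133, 1110 and 898 FPKM, and liver 4 was lowest. It fell in both groups (−0.55, adjusted p = 0.0231, and −1.03, adjusted p = 3.31e-06) in the authors' deposited tables. Hacl1 was at 12.6, 10.2, 8.51 and 6.66 FPKM and was called in none (−0.02 in the Cpt2 group, the authors' deposited table). Its exons share 31.1% of their bases with Gm49387 on the same strand, so its reads are hard to assign.

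Pecr and Decr2 reduce double bonds, in chain elongation and in the breakdown of unsaturated fatty acids. Pecr (chromosome 1, 72259167 to 72284314, GRCm38), whose promoter is printed above, was at 46.2, 61.0, 56.4 and 47.4 FPKM. It shares 11.5% of its exon bases with D230017M19Rik on the opposite strand. The fall had an adjusted p of 1.49e-04 in the Cpt1a knockout and 1.37e-31 in the Cpt2 group, and the difference between both was called too (1.18, adjusted p = 4.89e-13, the authors' deposited tables). Decr2 was at 228, 216, 183 and 182 FPKM, with livers 1 and 2 higher. It went the other way and rose in both (0.71, adjusted p = 3.39e-04, and 0.41, adjusted p = 0.0415, the authors' deposited tables).

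Ech1, an enoyl-CoA isomerase found in mitochondria too, was at 232 ± 26.0 FPKM (SD, n = 4). It rose in the Cpt2 group (0.56, adjusted p = 4.28e-04) and had a summed 0.28 in the Cpt1a knockout, not called, in the authors' deposited tables. Mlycd, which breaks down malonyl-CoA, the inhibitor of Cpt1a, was at 38.4 ± 3.42 FPKM (SD, n = 4). It was lower in the Cpt1a knockout than in the Cpt2 group (−0.42, adjusted p = 0.00958) and called against the reference in neither of the authors' deposited tables.

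Ether lipid synthesis begins with Gnpat and Agps inside the peroxisome and Far1 on its surface. Gnpat was at 17.8, 18.2, 16.4 and 16.4 FPKM, Agps at 2.31, 1.81, 1.93 and 1.69 FPKM, and Far1 at 0.587, 0.594, 0.548 and 0.529 FPKM. Far1 rests on only 67 to 72 counts per liver. It was higher in the Cpt1a knockout than in the reference (1.02, adjusted p = 0.00681) and than in the Cpt2 group (1.07, adjusted p = 2.93e-04) in the authors' deposited tables. Gnpat and Agps were called in none of the authors' deposited tables, with values between 0.00 and 0.16.

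Of the oxidases, Hao1 turns glycolate into glyoxylate and Uox oxidises urate. Hao1 (chromosome 2, 134497361 to 134554368, GRCm38) was at 41.0, 44.3, 46.2 and 40.5 FPKM, a narrow range. In the Cpt2 group it had −2.42 (adjusted p = 7.19e-20, the authors' deposited table), the largest change of the 36 genes. The Cpt1a knockout was 4.84-fold above the Cpt2 group (2.28, adjusted p = 2.13e-20, the authors' deposited table), again the largest. Uox (chromosome 3, 146570426 to 146632305, GRCm38) was at 193, 155, 216 and 162 FPKM and fell in both groups (−0.74, adjusted p = 6.70e-04, and −1.16, adjusted p = 5.47e-11, the authors' deposited tables).

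The enzymes against peroxide and epoxides did not pass the test in either group against the reference. Cat, catalase, was at 1020, 850, 717 and 720 FPKM, highest in liver 1, and had 0.07 in the Cpt2 group (adjusted p = 0.874) and a summed −0.03 in the Cpt1a knockout in the authors' deposited tables. Prdx5, a peroxiredoxin also found in mitochondria, was at 46.9, 69.9, 80.6 and 64.6 FPKM, lowest in liver 1. It lies on chromosome 19 as Cpt1a does, had −0.01 in the direct comparison (adjusted p = 0.982) in the authors' deposited table, and shares 19.1% of its exon bases with Trmt112 on the opposite strand. Ephx2, an epoxide hydrolase also present in the cytosol, was at 562, 467, 469 and 486 FPKM. It was lower in the Cpt1a knockout than in the Cpt2 group (−0.44, adjusted p = 0.00245, the authors' deposited table).

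Nudix hydrolases of the peroxisome cut coenzyme A and nicotinamide nucleotides. Nudt7, Nudt12 and Nudt19 were at 28.5 ± 3.21, 19.0 ± 3.67 and 17.9 ± 2.70 FPKM (SD, n = 4 each). Only Nudt19 was called, lower in the Cpt2 group (−0.59, adjusted p = 0.0292, the authors' deposited table), and it shares 35.0% of its exon bases with B230322F03Rik on the opposite strand. Lonp2, the protease that clears matrix proteins, was at 53.3, 41.5, 43.8 and 45.1 FPKM, highest in liver 1. It rose in the Cpt2 group (0.58, adjusted p = 3.06e-04) and was lower in the Cpt1a knockout than there (−0.79, adjusted p = 1.64e-08) in the authors' deposited tables.

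**Figure D3:**
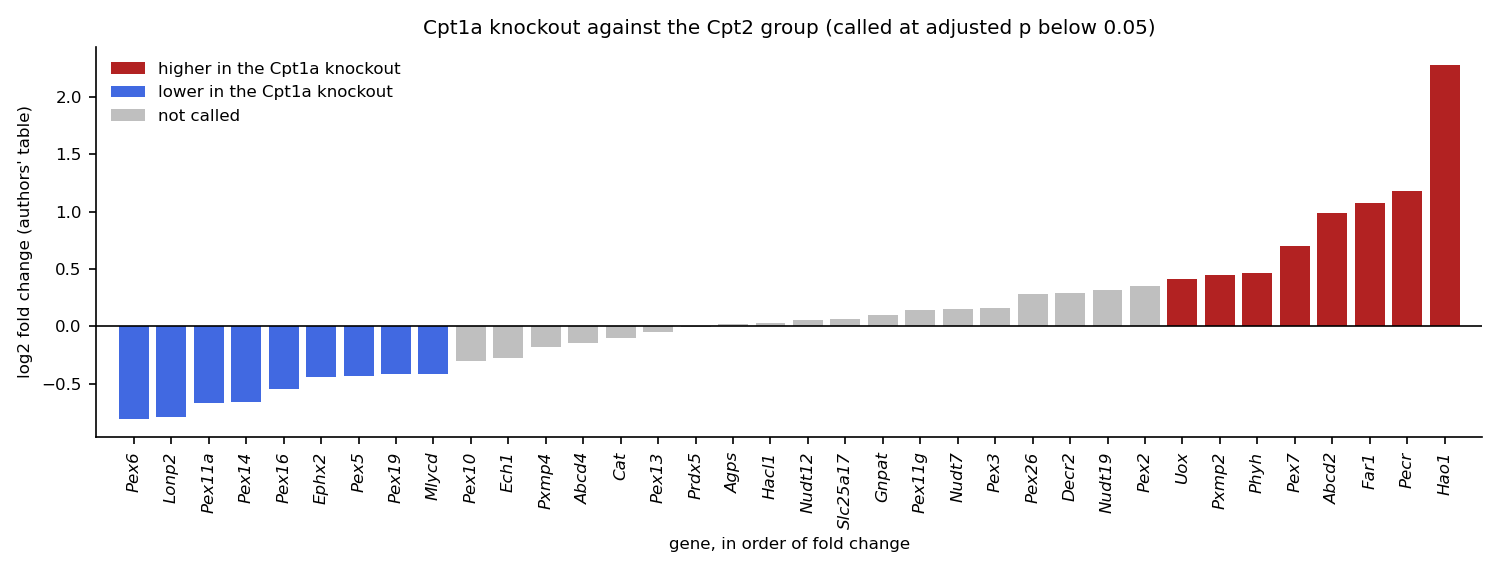
Log2 fold change of the 36 genes in the Cpt1a knockout relative to the Cpt2 group (authors' table), in order of size, red where called higher, blue where called lower and grey where not called. Values run from −0.81 for Pex6 to 2.28 for Hao1.

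Pex11a, Phyh, Pxmp2, Pecr and Uox were the 5 genes called in all 3 of the authors' deposited tables. In each, the Cpt2 group lay further from the reference than the Cpt1a knockout did. A further 9 genes were called in 2 tables and 8 in 1, and 14 measured genes in none (the authors' deposited tables). Abcd2, Abcd4, Decr2 and Far1, also called in the Cpt1a knockout against the reference, lay further from the reference there than in the Cpt2 group. These comparisons share libraries in pairs, so the pattern is a description and carries no test of its own. How often all genes were called in several comparisons was not computed, so the pattern is not shown to be particular to these genes.

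Cell type markers moved with the same comparisons. Of all genes, 14.4% and 21.0% were called in the Cpt1a knockout and Cpt2 group against the reference, and 28.8% in the direct comparison. In the direct comparison all 8 Kupffer cell and macrophage markers were higher in the Cpt1a knockout (0.75 to 1.66), as were 3 of 3 red blood cell markers (0.85 to 1.33) and 2 of 6 hepatocyte markers, with none lower, (the authors' deposited table). With the reference as the base, 2 of 8 macrophage markers rose in the Cpt1a knockout and 3 of 8 fell in the Cpt2 group, by the authors' deposited tables. All 3 red blood cell markers fell in the Cpt2 group (−1.01 to −1.78), and 2 of 5 lymphocyte markers rose in the Cpt1a knockout (the authors' deposited tables). Of 6 hepatocyte markers 2 fell and 1 rose in the Cpt1a knockout, and 3 fell and 1 rose in the Cpt2 group, with Alb at −1.23 and −1.41, in the authors' deposited tables. Among other cell types, 2 of 5 endothelial, 2 of 5 lymphocyte and 1 of 4 bile duct markers were higher in the Cpt1a knockout than in the Cpt2 group, as was 1 of 5 stellate cell markers, with 2 lower, and no neutrophil marker of 3 was called, by the authors' deposited table. Bile duct markers summed to at most 2.10 FPKM in the Cpt1a knockout livers. The part of these shifts in the results above was not tested, and in whole liver fewer cells of a type and less RNA per cell cannot be told apart.

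**Figure D4:**
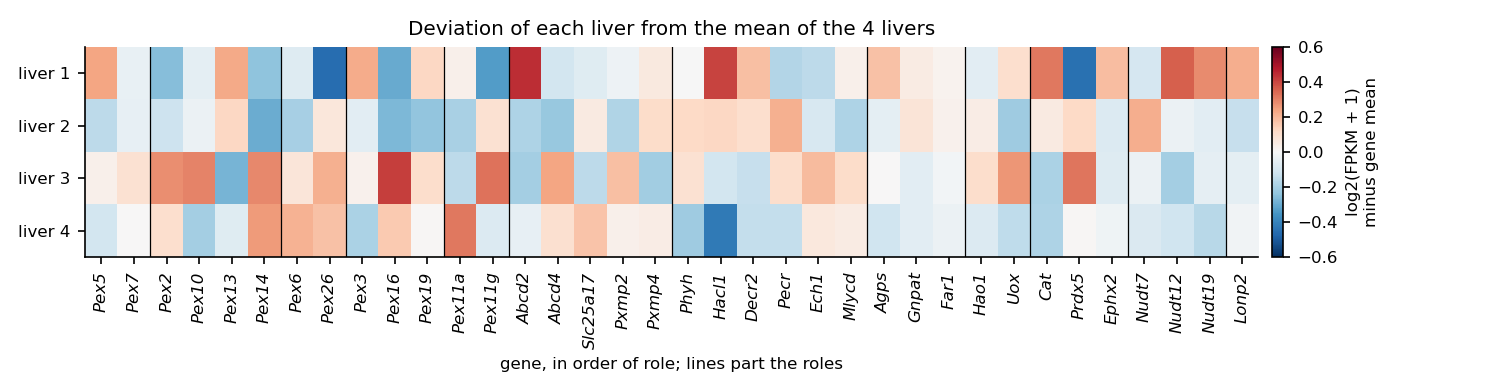
Log2(FPKM + 1) of each gene in each Cpt1a knockout liver minus the mean of the gene over the 4 livers (red above, blue below). Liver 1 is high for Abcd2 and Hacl1 and low for Pex26 and Prdx5.

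Genes of 1 role differed in which liver was highest. Liver 3 was highest for 14 of the 36 genes, liver 1 for 13, liver 2 for 6 and liver 4 for 3. Liver 2 was lowest for 12 genes, liver 4 for 9, liver 1 for 8 and liver 3 for 7. Within the docking pair, Pex13 was highest in liver 1 and lowest in liver 3, while Pex14 was highest in liver 3.

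The core peroxisomal beta-oxidation genes shorten the fatty acids themselves. Of 14, 7 rose and 2 fell in the Cpt1a knockout, and 8 rose and 2 fell in the Cpt2 group (medians of 0.46 and 0.68, the authors' deposited tables). That is 64.3% and 71.4% called, beside 14.4% and 21.0% of all genes and 27.4% and 36.1% of genes at 10 FPKM or more. Ehhadh, the bifunctional enzyme, had 2.25 and 3.28, and Acox2, the oxidase of branched and bile acid side chains, −1.50 and −1.09 in the authors' deposited tables. Acaa1b, a thiolase and the most abundant of them, rose in both (1.44 and 2.22, the authors' deposited tables). Compared directly, 8 were lower and 2 higher in the Cpt1a knockout, Ehhadh at −1.05, in the authors' deposited table. That is 71.4% called, beside 28.8% of all genes.

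Of 18 further peroxisomal matrix and membrane proteins, none rose and 4 fell in the Cpt1a knockout, and 3 rose and 7 fell in the Cpt2 group, by the authors' deposited tables. That is 22.2% and 55.6% called, beside 14.4% and 21.0% of all genes and 27.4% and 36.1% of genes at 10 FPKM or more. Pipox, which oxidises pipecolic acid and sarcosine, had −0.99 and −1.86, and Gstk1, a glutathione transferase, −1.16 and −1.81 in the authors' deposited tables. Slc27a2, an acyl-CoA synthetase of very long chains and the most abundant of these 18 genes, was lower in the Cpt1a knockout than in the Cpt2 group (−0.53, the authors' deposited table). Agxt, which turns the glyoxylate made by Hao1 into glycine, fell in both (−0.87 and −0.73, the authors' deposited tables). The 4 fission factors were called in neither knockout against the reference, and Fis1 and Mff were higher in the Cpt1a knockout than in the Cpt2 group (0.64 and 0.46, the authors' deposited table).

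Turnover and tethering genes also differed in the direct comparison, with 5 of 7 lower and 1 higher in the Cpt1a knockout in the authors' deposited table. That is 85.7% called, beside 28.8% of all genes and 44.2% of genes at 10 FPKM or more. Against the reference 1 rose and 1 fell in the Cpt1a knockout and 2 rose in the Cpt2 group (28.6% called in each). Sqstm1 and Nbr1 are both autophagy receptors. Sqstm1, which hands over ubiquitinated cargo, had −1.69 (adjusted p = 6.90e-28) in the direct comparison and 1.19 in the Cpt2 group against the reference in the authors' deposited tables. Nbr1, the autophagy receptor known for peroxisomes, fell in the Cpt1a knockout against the reference (−0.68, adjusted p = 0.00155, the authors' deposited table). Acbd4, which tethers peroxisomes to the endoplasmic reticulum, was higher in the Cpt1a knockout than in the Cpt2 group (0.99, adjusted p = 9.98e-10, the authors' deposited table).

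**Figure D5:**
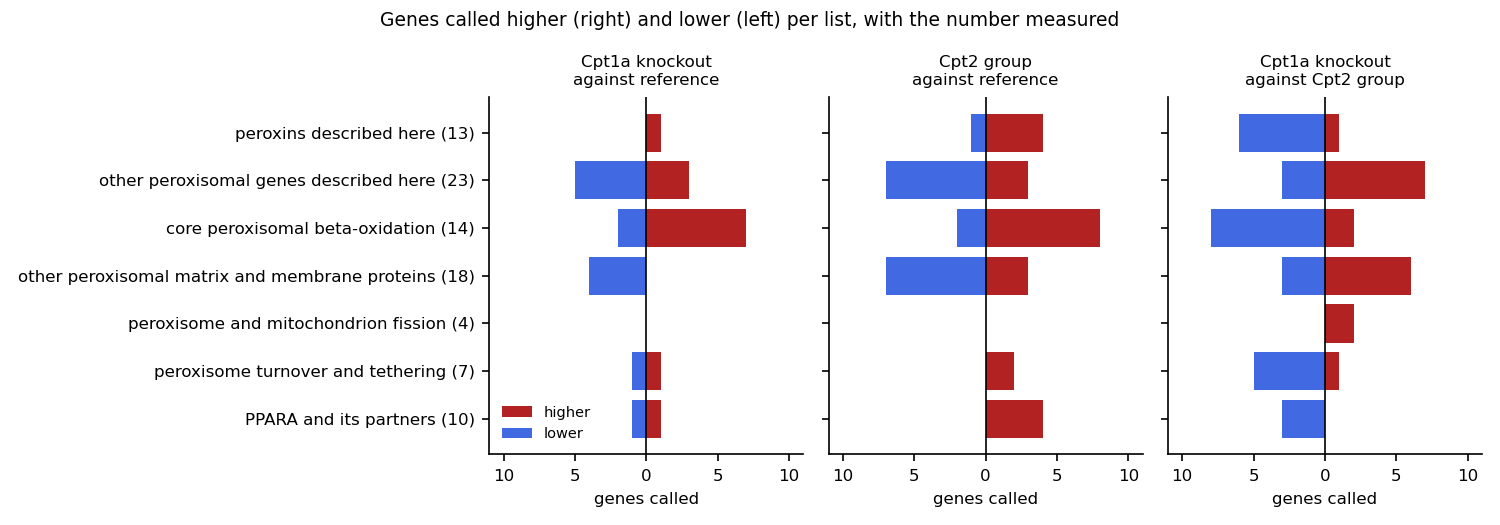
Number of genes called higher (red, right) and lower (blue, left) in each list for the 3 comparisons of the authors' tables, with the number measured in brackets. The 13 peroxins show 6 lower and 1 higher in the direct comparison, and the 14 core beta-oxidation genes 8 lower and 2 higher, where 14.6% of all genes were lower and 14.2% higher.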

How the data were processed

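RNA of 4 livers was sequenced. The counts per gene and the FPKM are as the authors deposited them. Per the submitters' processing notes, HISAT2 and the builds GRCm38 and mm10 were used. Which counter, annotation release, strand setting and test were used is not given in the sources used here. Log2 fold changes and p-values of 3 comparisons come from the authors' deposited tables. One of these lists only the 4461 genes with p up to 0.05, and for other genes the sum of the other tables' log2 fold changes is given. Over 4424 genes in both, 99.7% of these sums lay within 0.05 of the median difference from the table. No test was added. The 37 genes and all gene lists were chosen with earlier results of these data known. Genes outside the 37 were named from each list's most abundant gene and, per comparison, its 4 called genes with the smallest adjusted p, of which not all are printed.

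Means, SDs and counts of calls were computed with Python 3.11.15, pandas 2.3.3 and numpy 2.4.6. Only the spread between livers and the inferred number of genes tested were checked on simulated data. edgeR 4.0.16 (R 4.3.3) gave only the TMM scaling of an alternative. Totals were 13138884 to 14116441 counts. Gene positions were taken from the GRCm38 annotation, in which 98.33% of genes have the same start and end as in the deposited table. Per-sample columns that match no sample (8) were not used. Of the 37 genes, 14 share exon bases with another gene, so their counts are uncertain. One further gene list is not reported here.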

Additional observations from a re-analysis of the deposited data

Results flagged for a closer look

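The 17 genes called in the direct comparison differed between the Cpt1a knockout and the Cpt2 group, by the test in the authors' deposited table. Higher in the Cpt1a knockout than in the Cpt2 group were Hao1 (log2 fold change of 2.28), Pecr (1.18), Far1 (1.07), Abcd2 (0.99), Pex7 (0.70), Phyh (0.46), Pxmp2 (0.45) and Uox (0.41) in the authors' deposited table. Lower were Pex6 (−0.81), Lonp2 (−0.79), Pex11a (−0.67), Pex14 (−0.66), Pex16 (−0.55), Ephx2 (−0.44), Pex5 (−0.43), Pex19 (−0.42) and Mlycd (−0.42) in the authors' deposited table. The Cpt2 samples were submitted in an earlier series, and batch and genotype cannot be told apart. No gene of the 36 had a liver far from the other 3 by Dixon's criterion at the 95% level.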

How the results depend on the processing

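The median level of 27.8 FPKM became 31.2 with FPKM computed from the sum of counts, 31.1 with TMM scaling and 38.6 over the longest coding transcript (chosen after seeing the data). Leaving out 1 liver gave 27.4 to 28.4 FPKM and a median spread of 0.16 to 0.19. With a log2 fold change of at least 1 required, the calls in the authors' deposited tables went from 9 to 4, from 15 to 6 and from 17 to 3, since most called changes are smaller. At adjusted p below 0.01 they were 7, 11 and 13, and without genes that share exons 6, 11 and 12 (chosen after seeing the data). The shares of all genes called at these settings were not computed, so these counts cannot be set against them. No paired analysis was possible because the labels give 1 group. Livers could not be left out of the authors' deposited tables, and the search for targeting signals was not run, since protein sequences were not used here. Far1, at 67 to 72 counts, has the least depth.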

Other observations

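Genes around the peroxisome had calls of their own. Of 10 genes for PPARA and its partners, 1 rose and 1 fell in the Cpt1a knockout, and 4 rose in the Cpt2 group, by the authors' deposited tables. Nr1d1, a repressor of the circadian clock, rose in both (1.54 and 1.90), and Ppargc1a, a coactivator of fasting genes, fell in the Cpt1a knockout (−1.23, adjusted p = 0.00264) in the authors' deposited tables. Rxra, the partner receptor and the most abundant of these genes, was called in none (−0.23 in the Cpt2 group, the authors' deposited table). Ppara itself had 0.64 (adjusted p = 0.0642) in the Cpt1a knockout and rose in the Cpt2 group (0.72, adjusted p = 0.0386) in the authors' deposited tables.

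Of 6 genes listed with later ether lipid steps, 1 fell in the Cpt1a knockout (16.7% called), by the authors' deposited table. In the Cpt2 group 3 rose and 1 fell (66.7%, the authors' deposited table). Of all genes, 14.4% and 21.0% were called. Tmem189, which makes the plasmalogen double bond, rose in the Cpt2 group (1.42, adjusted p = 1.18e-06), and Tmem86b, which degrades lysoplasmalogen, fell in both (−1.07 and −1.54) in the authors' deposited tables. Far2, a reductase as Far1 is and not a later step, rose in the Cpt2 group (1.22, adjusted p = 0.00176, the authors' deposited table). It had 0.94 (adjusted p = 0.0870) in the Cpt1a knockout, not called, and was at 0.451 FPKM there. Cept1, a phosphotransferase of the last step and the most abundant of the 6, was called in none (0.04 in the Cpt2 group, the authors' deposited table). Near Hao1 and Uox, Xdh, which makes urate, fell in both (−0.52 and −0.83), and Grhpr, which reduces glyoxylate, rose in both (0.41 and 0.46) in the authors' deposited tables.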
